A study of Mus musculus with 24 samples.

Results

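The 38 antiviral interferon-stimulated genes described here were taken from a fixed list of gene names and matched exactly to the gene names of the deposited count table. All 38 were found among its 56748 genes. The list held genes induced by type I interferon and left out the GBP and IRG GTPase families. After removal of genes with too few reads to test, 31 of the 38 and 15885 genes in all remained. The other 7 (Ifit3b, Oas2, Oasl1, Rsad2, Ifi204, Rtp4 and Ifi44) had between 25 and 110 reads each over all 24 libraries, so their levels are given without a test.

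Type I interferons bind the receptor pair IFNAR1 and IFNAR2 on nearly all cells, and the JAK kinases on that receptor switch on a transcription factor complex that holds STAT2 and IRF9. This complex binds a promoter sequence called the interferon-stimulated response element (ISRE) and induces genes that block translation, degrade viral RNA, sense foreign nucleic acid and tag proteins with ISG15. Interferon gamma, made by Th1 and CD8 T cells, acts mainly through a second sequence, the gamma-activated site (GAS), and many of these genes answer to it as well. In T cells a low level of interferon signalling keeps part of the programme running without infection.

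The libraries came from wild-type mouse T cells polarised in culture to Th1, Th17 or regulatory T (Treg) cells, or to activated CD8 cells, which the column names call Tc1. Each type received the solvent DMSO or 0.1 µM of 1 of 5 agonists of the kappa-opioid receptor, WMS-83, WMS-76, WMS-75, WMS-64 and WMS-200, given here by the short codes of the column names. There was 1 poly(A)-selected library for each of the 24 combinations, hence 6 per cell type. Libraries treated with different compounds therefore stood in as replicates of a cell type, and since nothing says that they came from separate cultures or animals, p-values measure only the spread between these libraries. The column names also carry an unexplained number after the letters WT. Every Th1 library had the number 4 and every CD8 library the number 2. No other cell type had the number 4, so differences of Th1 from the other types cannot be told apart from the WT number. In Th17 and Treg the number changed with the treatment, being 3 in the Treg libraries with DMSO and WMS-200 and 2 in the other Treg libraries. In 1 Th1 library the title named Th17 cells, while its source, its characteristics and its column name gave Th1, and it was used as Th1. In bulk RNA, fewer cells of a type and less RNA per cell cannot be told apart.

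The libraries held 15188284 to 21946887 reads assigned to genes. Several defining genes matched the labels. Cd8a averaged 389 CPM (read counts scaled to library size) in CD8 libraries and at most 84.1 elsewhere. Il17f averaged 831 in Th17 and Foxp3 282 in Treg, and no other cell type averaged above 1.81 for Il17f or 34.0 for Foxp3. Other listed markers went the other way. Il2ra averaged 1070 CPM in Treg, below 1616 in Th17 and 1894 in CD8. Cxcr3 averaged 16.7 in Th1 and 29.9 in Treg, and Ccr6 31.6 in Th17 and 57.1 in Treg. Ifng averaged 592 CPM in Th1 and 1369 in CD8, against 5.00 in Th17 and 0.256 in Treg. Treg libraries stood apart in make-up, with 1.60% to 2.68% of reads on ribosomal protein genes against 8.60% to 11.4% in the other 3 cell types and 0.934% to 1.498% on mitochondrial genes against 0.215% to 0.759%. They were also divided by the WT number. Ikzf2, which encodes the transcription factor Helios, stood at 1103 to 1137 CPM with number 3 and at 540.3 to 600.6 with number 2, and Foxp3 at 162 to 208 against 290.3 to 357. A list of 8 B-cell genes, none at 0, summed to 17.6 to 19.3 CPM in the Treg libraries with number 3, 9.23 to 11.5 in those with number 2, and 3.65 to 12.7 in the other cell types. A list of 13 myeloid and dendritic-cell genes summed to at most 5.59 CPM in every library, with S100a9 at 0 in all 24. The 4 NK and gamma delta T-cell genes in the table summed to 9.91 to 12.3 CPM in Th17, 7.67 to 9.54 in CD8, 3.32 to 6.17 in Th1 and 1.32 to 2.64 in Treg, most of it Trdc (means 11.0 in Th17 and 1.66 in Treg), with Klra8 at 0 in Treg. A stromal list summed to 44.9 to 57.5 CPM in Treg against 11.4 to 21.9 elsewhere, nearly all of it Pecam1. Col1a1 was also higher in Treg, with a mean of 1.85 CPM against 0.357 to 0.797 elsewhere. Col1a2 (0.281) and Pdgfrb (0.430) had their highest mean in Treg as well. Col3a1 and Cdh5 stayed under 0.1 CPM on average in Treg, and Dcn was at 0 there. The part of these other cell types and of the ribosomal and mitochondrial shares in the results was not tested.

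Promoter sequence is given first, because the list was drawn up by response to interferon and the ISRE is the element that this response uses. RefSeq promoter windows on mouse build GRCm38.p6, running from 250 bases before to 50 bases after a start site, were at hand for 27 of the 38 genes. The core of the ISRE, GAAANNGAAA on either strand, occurred in 13 of the 27 (48.1%) and in 3.99% of the 27025 genes with such a window. The GAS pattern, TTCNNNGAA, occurred in 6 of the 27 (22.2%) and in 9.55% of all genes. With 1 mismatch allowed in the ISRE core, 26 of 27 held a match, but so did 38.9% of all genes. A match shows only that the letters are there, and a missing match says nothing about the factor. The 160 bases upstream of the start site are printed here for 6 genes with an exact match, 5′ to 3′ on the gene's strand, with the ISRE core in capitals. Isg15, Oas3 and Oas1a were chosen because their RNA was high in Th1 and CD8, Bst2 because it had the highest level per length, and Mndal and Ifi203 because their RNA was far higher in Treg.

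Isg15 (chr4:156200819-156200978, minus strand): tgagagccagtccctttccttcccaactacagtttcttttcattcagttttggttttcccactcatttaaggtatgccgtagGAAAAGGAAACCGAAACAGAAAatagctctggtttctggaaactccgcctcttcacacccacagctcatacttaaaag
Oas3 (chr5:120777660-120777819, minus strand): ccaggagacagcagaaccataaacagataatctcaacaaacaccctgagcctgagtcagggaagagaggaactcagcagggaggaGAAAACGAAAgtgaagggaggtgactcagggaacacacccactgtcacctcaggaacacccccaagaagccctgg
Oas1a (chr5:120907526-120907685, minus strand): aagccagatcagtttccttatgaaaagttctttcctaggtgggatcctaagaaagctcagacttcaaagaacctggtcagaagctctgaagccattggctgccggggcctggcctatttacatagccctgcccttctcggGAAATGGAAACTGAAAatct
Bst2 (chr8:71537473-71537632, minus strand): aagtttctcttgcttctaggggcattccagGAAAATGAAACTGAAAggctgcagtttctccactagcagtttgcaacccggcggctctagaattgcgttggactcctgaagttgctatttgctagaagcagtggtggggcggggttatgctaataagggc
Mndal (chr1:173880188-173880347, minus strand): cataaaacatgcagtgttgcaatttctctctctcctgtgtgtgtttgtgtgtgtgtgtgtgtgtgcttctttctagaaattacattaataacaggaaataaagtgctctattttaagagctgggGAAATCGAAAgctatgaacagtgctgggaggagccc
Ifi203 (chr1:173942493-173942652, minus strand): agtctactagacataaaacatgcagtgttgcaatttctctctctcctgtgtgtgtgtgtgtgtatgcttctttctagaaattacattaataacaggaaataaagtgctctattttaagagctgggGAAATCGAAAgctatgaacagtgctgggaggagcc

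In Isg15, 3 overlapping copies of the core began 78, 72 and 66 bases upstream of the start site. Oas1a held 2 overlapping copies at 20 and 14 bases, and Bst2 held 2 at 130 and 124 bases, the first of which overlapped a GAS match that began at 136 bases. Oas3 held a single copy at 75 bases. Mndal and Ifi203, neighbours on chromosome 1, held a copy at 36 and 35 bases and shared a run of 96 identical bases in the sequences above. These 6 genes were chosen for an exact match, so the presence of the core in genes high in Th1 and CD8 and in genes high in Treg follows from that choice. All listed genes with a window were also grouped by the cell type with the highest mean level. The core was in 7 of 17 genes highest in Treg, 3 of 6 highest in CD8, 3 of 3 highest in Th1 and 0 of 1 highest in Th17. In the plot of match positions the ISRE core farthest upstream is in Ifit3b, 188 bases before the start site, and those of Ifih1 and Eif2ak2 begin after it.

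**Figure D1:**
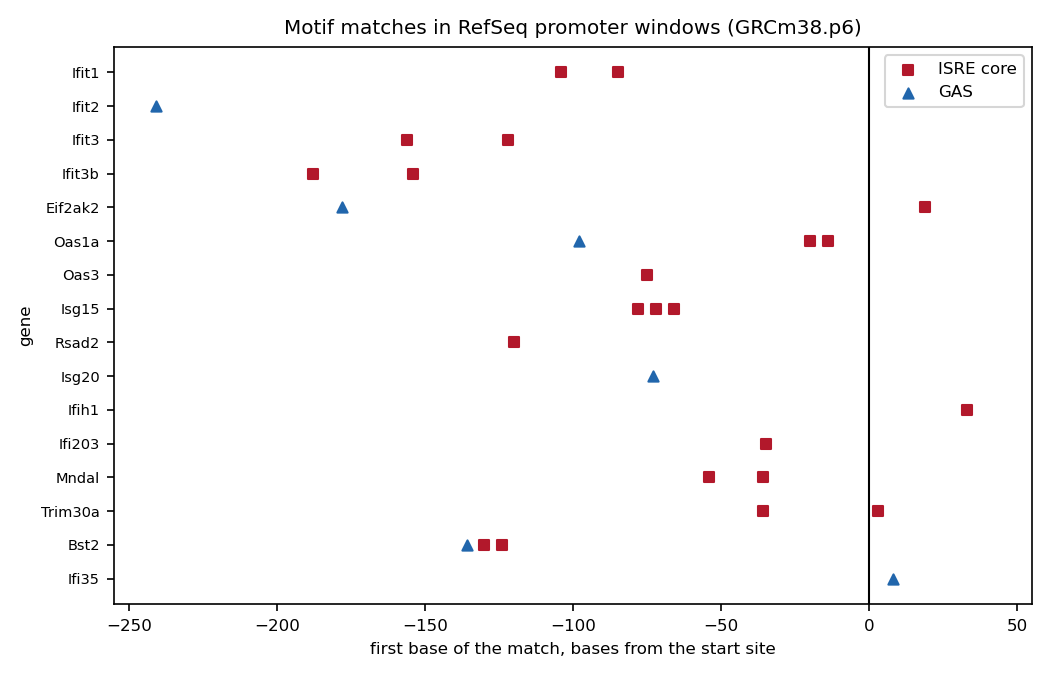
Position of every exact match of the ISRE core (squares) and the GAS pattern (triangles) in RefSeq promoter windows, in bases from the start site (vertical line), for the genes with a match; start sites of a gene are pooled, and Mndal and Trim30a have matches from 2 start sites each. Isg15 has 3 matches between 78 and 66 bases upstream.

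As a group these genes were highest in Treg and lowest in Th17. The summed level of all 38 was 1503 CPM in the lowest, 1587 in the median and 1800.0 in the highest Treg library. In Th17 the same values were 624, 650.3 and 675.5 CPM, in Th1 943, 965 and 987, and in CD8 903, 992 and 1028. Treg lay above and Th17 below every other library, while Th1 and CD8 overlapped. The 4 PYHIN genes alone summed to 433 to 664 CPM in Treg, against 18.3 to 82.1 in the other cell types. By mean level, 20 of the 38 genes were highest in Treg, 11 in CD8, 6 in Th1 and 1 in Th17, and 27 were lowest in Th17. Among the 31 genes past the count filter, 18 were highest in Treg, 6 in CD8, 6 in Th1 and 1 in Th17, and 21 were lowest in Th17. The same tally was not made over all genes. Compared per transcript length in RPKM, averaged over all libraries, the leading genes were Bst2 (99.7), Ifi27l2a (33.6), Mndal (27.1), Lgals3bp (26.6) and Dtx3l (22.1), while Isg15 ranked 23 of 38 at 1.56, Ifit1 29 at 0.615 and Ifi44 38 at 0.00895. Usp18 ranked 13 and Ifih1 17.

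**Figure D2:**
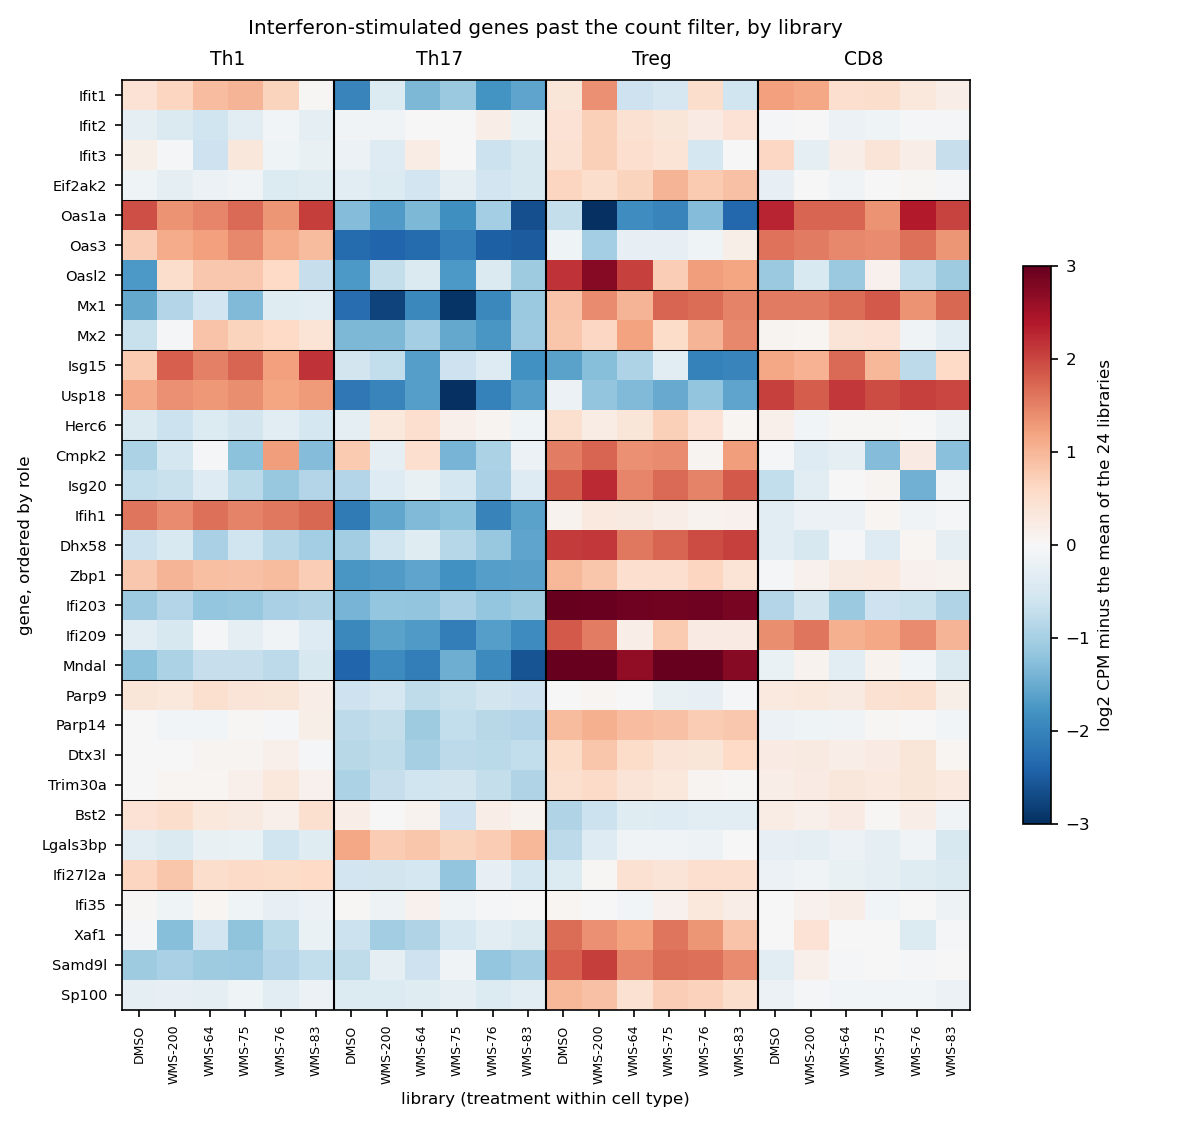
Level of the 31 genes past the count filter in each of the 24 libraries, as log2 CPM minus the gene's mean over the 24 (colour, limited to ±3); columns are libraries by cell type and treatment, and lines part the roles. Ifi203 and Mndal are high in all 6 Treg libraries, and Oas3, Usp18 and Zbp1 are low in all 6 Th17 libraries.

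Of the 31 genes tested, 29 differed among the 4 cell types (edgeR quasi-likelihood F-test, Benjamini-Hochberg adjusted over 15885 genes), where 87.4% of all genes did. Ifit3 and Ifi35 were the 2 that did not pass. Against Th17, 24 genes were higher in Treg (38.3% of all genes were) and 2 were lower (36.5%). Th1 had 19 higher than Th17 (24.1% of all genes) and 4 lower (23.2%), and CD8 had 22 higher (24.3%) and 1 lower (22.8%). The median log2 fold change of the 31 was 1.68 in Treg, 0.86 in Th1 and 0.68 in CD8 over Th17, where the median of all genes was 0.09, 0.02 and 0.00. Against Treg, 9 genes were higher in Th1 (37.3% of all genes) and 19 lower (40.1%), and 6 were higher in CD8 (37.8%) and 18 lower (40.2%). The medians were -0.65 for Th1 and -0.39 for CD8 against Treg, beside -0.09 and -0.08 for all genes. CD8 and Th1 differed in fewer genes, with 8 higher in CD8 (8.69% of all genes), 3 lower (7.26%) and a median of 0.17 (-0.00 for all genes). Some of the 31 passed the count filter mainly through the cell type where they were high, so these counts describe the genes and were not tested as a set. Comparisons against the same cell type share its libraries.

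**Figure D3:**
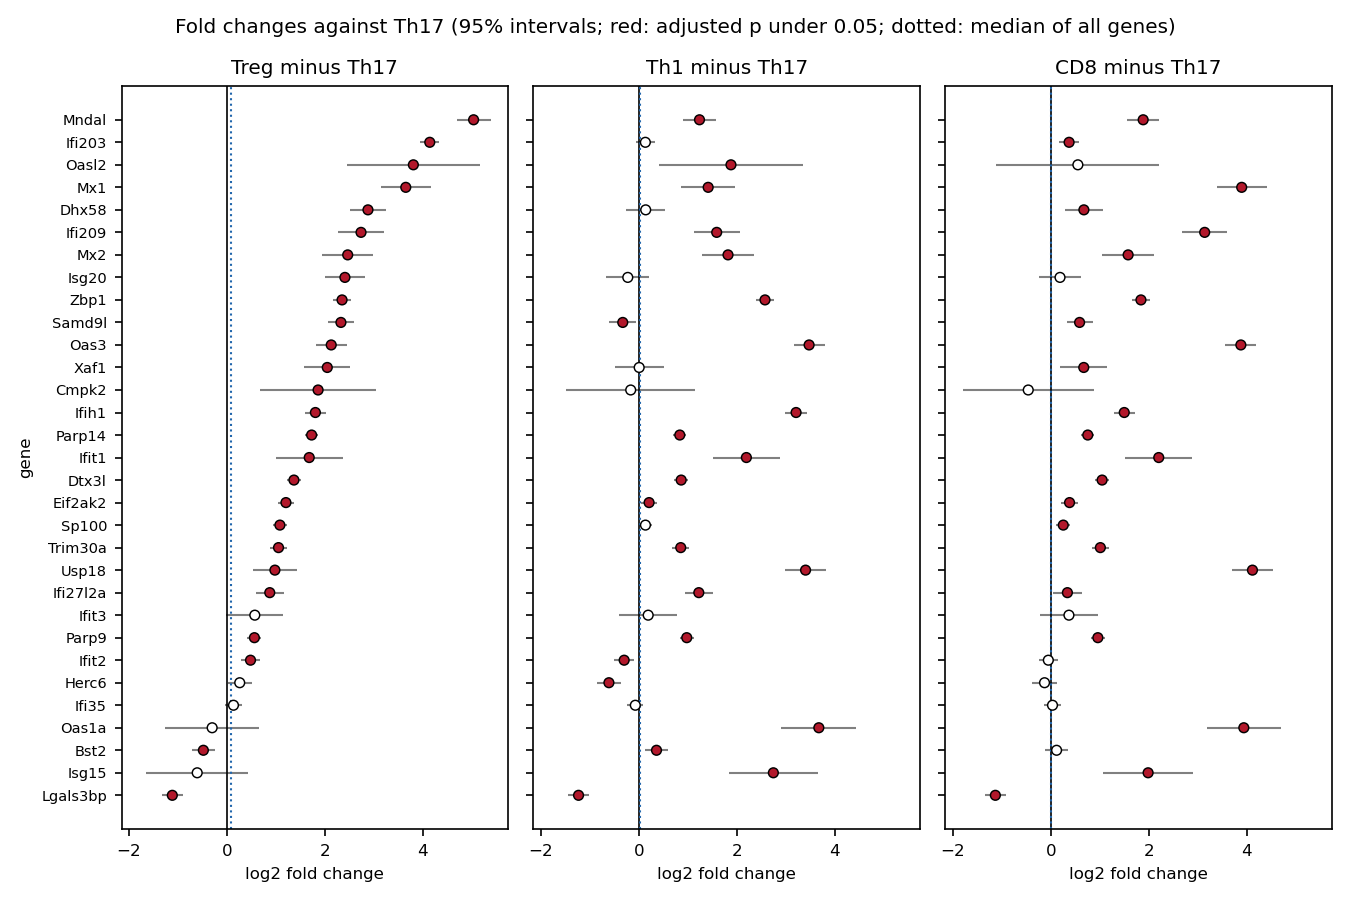
Log2 fold change of the 31 genes in Treg, Th1 and CD8 over Th17 with 95% intervals, ordered by the Treg difference; red marks adjusted p under 0.05 and the dotted line is the median of all 15885 genes. Mndal is highest in Treg at 5.04, Usp18 in CD8 at 4.12, and Lgals3bp lies below 0 in all 3 panels.

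Complete separation of libraries gave a stricter count. In 11 of the 31 genes all 6 Treg libraries lay above every other library (17.6% of all genes did), namely Dtx3l, Sp100, Mndal, Parp14, Ifi203, Eif2ak2, Samd9l, Ifit2, Dhx58, Isg20 and Xaf1. In another 11 all 6 Th17 libraries lay below every other library (4.16% of all genes), and Dtx3l, Mndal and Parp14 were in both sets. Th1 stood above all others for Ifih1 and Ifi27l2a (1.7% of all genes), CD8 for Usp18 (2.73%) and Th17 for Lgals3bp (5.21%). Th1 stood below all others for Herc6 (1.47%), and neither Treg (21.9%) nor CD8 (1.28%) stood below the others for any of the 31.

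The translation blockers were led by Eif2ak2 (chromosome 17, 79159993 to 79190002, minus strand, in the coordinates of the deposited table, whose build is not given in the sources used here). It encodes PKR, the kinase that halts translation on double-stranded RNA. Its lowest, median and highest library stood at 35.5, 41.2 and 50.0 CPM in Treg, 20.7, 24.2 and 25.2 in CD8, 18.7, 21.3 and 22.8 in Th1 and 16.6, 18.1 and 20.1 in Th17. Only Treg was clear of the rest, 2.31-fold above Th17 (log2 1.20 ± 0.08 SE, adjusted p = 5.99e-13, edgeR), and CD8 did not differ from Th1 at the threshold (adjusted p = 0.171). Ifit1 (chromosome 19, 34618271 to 34627409), whose product binds viral RNA with a foreign 5′ end, was far scarcer. It stood at 1.55, 1.93 and 3.27 CPM in CD8, 1.37, 2.16 and 2.80 in Th1, 0.828, 1.33 and 3.62 in Treg and 0.256, 0.415 and 0.977 in Th17. Th17 was low and did not overlap Th1 or CD8, but its highest library passed the lowest Treg library. Th1 was 4.58-fold and CD8 4.61-fold above Th17 (adjusted p = 3.94e-06 and 3.60e-06), and neither differed from Treg at the threshold (adjusted p = 0.116 and 0.107).

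The 3 other IFIT genes lie beside Ifit1 on chromosome 19. Ifit2, which also binds RNA and curbs translation, averaged 21.7 ± 2.51 CPM (SD, n = 6) in Treg, 15.5 ± 1.56 in Th17, 15.0 ± 0.610 in CD8 and 12.6 ± 1.47 in Th1. Unlike Ifit1 it was lower in Th1 than in Th17 (log2 -0.30 ± 0.10, adjusted p = 0.0127). Ifit3 and its near copy Ifit3b, partners of IFIT1, cannot be fully separated by reads, since 31.7% of the 100-base stretches of Ifit3 transcripts recur in Ifit3b. Ifit3 averaged 1.48 CPM in Treg, 1.30 in CD8, 1.13 in Th1 and 0.993 in Th17, with ranges that overlapped in every pair, and Ifit3b stayed at or under 0.370 CPM in every library.

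The OAS enzymes make 2′-5′ oligoadenylates that activate RNase L. Oas3 (chromosome 5, 120891163 to 120915726), the long form most tied to RNase L, stood at 40.0, 45.2 and 50.0 CPM in CD8, 26.6, 34.7 and 43.1 in Th1, 7.83, 14.0 and 17.9 in Treg and 2.73, 3.05 and 3.74 in Th17. The order was CD8, Th1, Treg and Th17, and only the first pair overlapped. CD8 was 14.8-fold and Th1 11.1-fold above Th17 (log2 3.88 ± 0.15 and 3.48 ± 0.15, adjusted p = 6.80e-17 and 6.17e-16), and Treg was 4.38-fold above it. CD8 passed Th1 by 1.32-fold (adjusted p = 0.027), but adjusted p was 0.0574 to 0.101 without the Th1 library of DMSO, WMS-76 or WMS-83 or the CD8 library of DMSO, WMS-200 or WMS-76. Oas1a (chromosome 5, 121034319 to 121045584), a short form, stood at 2.56, 3.80 and 5.38 CPM in CD8, 2.53, 3.05 and 4.32 in Th1, 0.0619, 0.262 and 0.408 in Th17 and 0, 0.172 and 0.529 in Treg. Both low types lay below every CD8 and Th1 library, and Treg did not differ from Th17 at the threshold (log2 -0.30 ± 0.47, 95% interval -1.26 to 0.66, adjusted p = 0.565). CD8 was 19.0-fold and Th1 15.8-fold above Treg (adjusted p = 8.55e-11 and 3.38e-10). Of the 100-base stretches of Oas1a, 40.9% recur in Oas1g, so its count is uncertain.

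Of the other OAS genes, Oasl2, which encodes an OAS-like protein with ubiquitin-like domains, went the other way and was highest in Treg at 1.16 ± 0.651 CPM, against 0.323 ± 0.216 in Th1, 0.118 ± 0.0870 in CD8 and 0.0794 ± 0.0701 in Th17. It rested on 201 reads in all, 145 of them in Treg, and passed the count filter mainly through Treg. Oas2, with 86 reads, had at most 0.815 CPM in a library, and Oasl1, with 103, at most 0.740.

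The Mx genes encode dynamin-like GTPases that trap viral nucleocapsids. Mx1 (chromosome 16, 97248235 to 97264107) stood at 8.35, 10.0 and 11.8 CPM in CD8, 5.92, 8.98 and 11.1 in Treg, 1.04, 1.91 and 2.57 in Th1 and 0.327, 0.671 and 1.42 in Th17. CD8 and Treg overlapped and were high, and Th1 and Th17 overlapped and were low. CD8 was 5.60-fold above Th1 (log2 2.48 ± 0.22, adjusted p = 4.01e-09) and did not differ from Treg at the threshold (log2 0.25 ± 0.20, adjusted p = 0.253). Mx2, next to Mx1 on the chromosome, averaged 3.98 ± 0.996 CPM in Treg, 2.59 ± 0.898 in Th1, 2.13 ± 0.432 in CD8 and 0.719 ± 0.154 in Th17, where it was lower than in each of the others.

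Among the genes of ISG15 conjugation, Usp18 (chromosome 6, 121222865 to 121247876) encodes the protease that removes ISG15 and that also silences the IFNAR2 chain of the receptor. It stood at 28.6, 32.8 and 34.9 CPM in CD8, 17.7, 19.7 and 21.03 in Th1, 2.62, 3.28 and 7.03 in Treg and 0.748, 1.92 and 2.48 in Th17. No cell type overlapped another, and all pairs passed the test, from 17.4-fold for CD8 over Th17 (log2 4.12 ± 0.20, adjusted p = 1.14e-14) to 1.64-fold for CD8 over Th1 (adjusted p = 0.0029). Isg15 itself (chromosome 4, 156283912 to 156285253), the ubiquitin-like modifier, was scarce. It stood at 1.29, 2.40 and 3.55 CPM in Th1, 0.365, 1.53 and 2.52 in CD8, 0.124, 0.400 and 0.510 in Th17 and 0.0914, 0.192 and 0.533 in Treg. Th1 was clear of Th17 and Treg, whereas CD8 overlapped all 3 others. Th1 was 10.2-fold above Treg and 6.71-fold above Th17 (adjusted p = 2.31e-07 and 9.25e-06), and CD8 did not differ from Th1 at the threshold (adjusted p = 0.216). Herc6, the mouse ligase for ISG15, was spread more evenly, at 12.8 ± 2.04 CPM in Treg, 10.6 ± 2.16 in Th17, 9.72 ± 0.730 in CD8 and 6.93 ± 0.560 in Th1. The excess of Treg over Th17 for Herc6 missed the threshold (adjusted p = 0.0507).

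**Figure D4:**
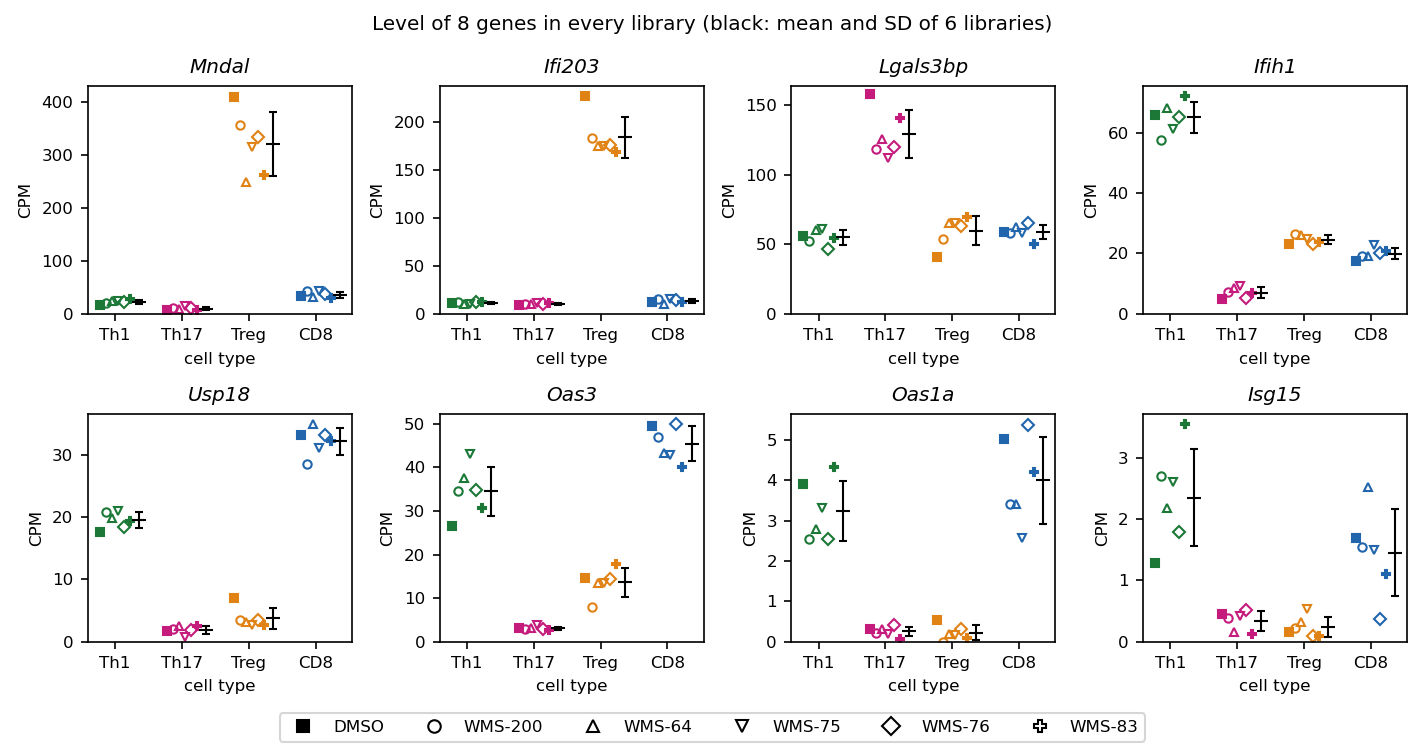
CPM of 8 genes in every library by cell type, each axis from 0, with marker shape for the treatment (filled for DMSO) and the mean and SD of 6 libraries in black. Mndal and Ifi203 are high in Treg, Lgals3bp in Th17, Ifih1 in Th1, Usp18 and Oas3 in CD8 and then Th1, and Oas1a and Isg15 in Th1 and CD8.

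Enzymes acting on nucleotides and RNA were scarce. Isg20 (chromosome 7, 78563172 to 78570144), an exonuclease of single-stranded RNA, stood at 6.53, 8.12 and 11.4 CPM in Treg, 0.783, 2.01 and 2.45 in CD8, 1.12, 1.66 and 1.99 in Th17 and 1.00, 1.30 and 1.74 in Th1. Treg was apart from the other 3, which overlapped one another, and exceeded Th17 5.31-fold (log2 2.41 ± 0.20, adjusted p = 3.09e-11). Cmpk2, a mitochondrial nucleotide kinase, averaged 0.886 ± 0.307 CPM in Treg and at most 0.275 elsewhere. Treg was above Th17 by log2 1.86 ± 0.57, or by 1.03 among libraries of WT number 2, which include 1 of Th17. Cmpk2 had 188 reads in all, 109 of them in Treg. It passed the count filter mainly through Treg, so its excess there is given without a test. Its neighbour Rsad2, which encodes viperin, had 107 reads in all, of which 55 were in Treg.

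Sensors of nucleic acid split by cell type. Ifih1 (chromosome 2, 62426142 to 62476599) encodes MDA5, the sensor of long double-stranded RNA, and stood at 57.7, 65.4 and 72.1 CPM in Th1, 23.2, 24.2 and 26.5 in Treg, 17.5, 19.7 and 22.7 in CD8 and 4.93, 7.14 and 9.20 in Th17. None of the 4 overlapped. Th1 was 9.26-fold above Th17 (log2 3.21 ± 0.11, adjusted p = 5.11e-19) and 2.65-fold above Treg, and CD8 was below Th1 by log2 -1.71 ± 0.10. Zbp1 (chromosome 2, 173048405 to 173060716), a sensor of Z-form nucleic acid that can start necroptosis, stood at 53.8, 59.8 and 65.1 CPM in Th1, 43.2, 48.2 and 64.6 in Treg, 31.6, 35.3 and 39.4 in CD8 and 9.11, 10.0 and 10.7 in Th17. Th17 was far below and the top pair overlapped. Th1 was 5.97-fold and Treg 5.10-fold above Th17 (adjusted p = 2.86e-18 and 1.27e-17), while Th1 over Treg was only 1.17-fold (adjusted p = 0.0164). That last difference missed the threshold without the Treg library of WMS-64 (adjusted p = 0.0589) or WMS-75 (0.0504), and turned to log2 -0.04 without the 4 Treg libraries of WT number 2 and to -0.14 with library totals as the only scaling. Dhx58, which encodes LGP2, a cofactor of MDA5, had another order than Ifih1. It averaged 16.0 ± 2.25 CPM in Treg, 3.47 ± 0.532 in CD8, 2.40 ± 0.391 in Th1 and 2.17 ± 0.662 in Th17, and Treg was 7.36-fold above Th17 (adjusted p = 1.09e-13).

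The PYHIN genes, which encode DNA-binding proteins of the family of the human sensor IFI16, lie in a cluster on chromosome 1 and held the widest differences. Mndal (173676692 to 173708447) stood at 248, 324 and 409.6 CPM in Treg, 29.1, 35.9 and 42.5 in CD8, 16.7, 23.5 and 28.3 in Th1 and 6.50, 9.86 and 14.3 in Th17. The 4 ranges did not overlap, and the lowest Treg library was several times the highest library of any other type. Treg was 32.9-fold above Th17 (log2 5.04 ± 0.17, adjusted p = 1.89e-16), and by log2 3.80 ± 0.15 above Th1 and 3.15 ± 0.15 above CD8. Ifi203 (173747973 to 173770238) starts 39.5 kb beyond Mndal and stood at 169, 176 and 227 CPM in Treg, 10.6, 13.7 and 16.0 in CD8, 10.4, 11.4 and 12.6 in Th1 and 8.77, 10.3 and 11.8 in Th17. Again Treg was apart, but the other 3 overlapped. Treg was 17.7-fold above Th17 (log2 4.14 ± 0.10, adjusted p = 1.25e-21), and Th1 did not differ from Th17 at the threshold (adjusted p = 0.28). Transcripts of the pair share few 100-base stretches with any other gene, 6.38% for Mndal and 2.84% for Ifi203.

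Ifi209, at the other end of the cluster, did not share this pattern. It stood at 15.6, 18.8 and 23.6 CPM in CD8, 8.79, 11.2 and 27.5 in Treg, 5.49, 6.11 and 7.34 in Th1 and 1.73, 2.14 and 2.44 in Th17. Treg libraries were widely spread and overlapped CD8 (log2 0.41 ± 0.19 for CD8 over Treg, adjusted p = 0.0558), while both were above Th1. Of its 100-base stretches 16.9% recur in the related Ifi214. Ifi204, between Ifi209 and Mndal, had 60 reads in all and was above 0 in 2 of 6 Treg libraries.

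Genes of mono-ADP-ribosylation and ubiquitin ligation were abundant and differed less. Dtx3l (chromosome 16, 35746881 to 35759521), a ubiquitin ligase that works with PARP9, stood at 153, 175 and 211 CPM in Treg, 123, 142 and 152 in CD8, 117, 122 and 133 in Th1 and 60.0, 68.5 and 71.0 in Th17. Parp14 (chromosome 16, 35653244 to 35691914), a mono-ADP-ribosyltransferase, stood at 146, 159.6 and 181 CPM in Treg, 81.1, 84.6 and 97.1 in Th1, 76.1, 80.7 and 87.8 in CD8 and 41.0, 49.1 and 52.5 in Th17. In both genes Treg was highest and Th17 lowest without overlap, with Th1 and CD8 between and overlapping. Treg exceeded Th17 2.58-fold for Dtx3l (log2 1.37 ± 0.07, adjusted p = 1.72e-15) and 3.32-fold for Parp14 (log2 1.73 ± 0.07, adjusted p = 7.88e-18). Parp9, the partner of DTX3L, differed in that Th1 and CD8 led, with 71.5, 80.6 and 87.6 CPM in Th1, 70.8, 77.2 and 87.6 in CD8, 52.9, 62.0 and 65.2 in Treg and 37.0, 40.5 and 43.8 in Th17. Both were above Treg, by 1.34-fold and 1.32-fold (adjusted p = 5.19e-06 and 9.38e-06), or by log2 0.06 each with library totals only (adjusted p = 0.457 and 0.411). Dtx3l and Parp9 overlap by 682 bases on opposite strands, and the strand setting of the counting is not given in the sources used here. Trim30a, a ubiquitin ligase that restrains inflammatory signalling, averaged 84.4 ± 12.5 CPM in Treg, 81.9 ± 3.19 in CD8, 73.4 ± 5.57 in Th1 and 40.7 ± 4.42 in Th17, below the rest in every library.

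Membrane and secreted products varied in their order. Lgals3bp (chromosome 11, 118283577 to 118292918), a secreted glycoprotein that binds galectins, was the only gene of the 38 highest in Th17. It stood at 112, 123 and 158 CPM in Th17, 41.0, 64.2 and 69.9 in Treg, 50.5, 58.6 and 65.3 in CD8 and 46.3, 55.2 and 61.0 in Th1. All Th17 libraries were above all others, which overlapped one another. Compared with Th17 the log2 difference was -1.23 ± 0.11 in Th1, -1.13 ± 0.11 in CD8 and -1.12 ± 0.11 in Treg (adjusted p = 6.38e-10, 2.58e-09 and 1.11e-09), and no other pair differed at the threshold.

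Bst2 (chromosome 8, 71986899 to 71990100) encodes tetherin, which holds budding virions on the cell surface. It stood at 97.6, 113 and 126 CPM in Th1, 81.0, 98.9 and 103 in CD8, 56.9, 93.5 and 101 in Th17 and 46.7, 67.3 and 70.3 in Treg. Treg was low and overlapped only the lowest Th17 library. Th1 was above Treg by 1.79-fold (adjusted p = 5.61e-07), and Treg was below Th17 (log2 -0.48 ± 0.11, adjusted p = 0.000639), a call lost with library totals as the only scaling (log2 -0.14, adjusted p = 0.23). Ifi27l2a (chromosome 12, 103408426 to 103409939), a small hydrophobic protein of intracellular membranes, stood at 21.1, 21.97 and 26.0 CPM in Th1, 11.0, 19.6 and 20.9 in Treg, 10.8, 12.2 and 13.7 in CD8 and 6.35, 9.99 and 12.2 in Th17. Th1 was above all others and the other 3 overlapped. It exceeded Th17 2.34-fold (adjusted p = 3.24e-08), and by 1.27-fold Treg (adjusted p = 0.0195), the latter turning to log2 -0.01 with library totals only. The excess over Treg also missed the threshold without the Th1 library of WMS-200 (adjusted p = 0.055) or the Treg library of DMSO (0.0805) or WMS-200 (0.0686). Rtp4, a chaperone of G-protein-coupled receptors that include opioid receptors, had 110 reads in all, 51 of them in CD8 and at most 0.779 CPM in a library.

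Among the remaining proteins, Sp100 (chromosome 1, 85577709 to 85637719), a component of PML nuclear bodies, stood at 150.2, 178 and 215 CPM in Treg, 95.8, 103 and 104 in CD8, 88.1, 91.0 and 99.9 in Th1 and 81.8, 83.3 and 90.8 in Th17. Samd9l (chromosome 6, 3372257 to 3399572), which restrains translation and growth, stood at 41.8, 50.2 and 66.8 CPM in Treg, 12.6, 15.3 and 17.4 in CD8, 6.93, 9.72 and 14.6 in Th17 and 7.37, 7.73 and 9.35 in Th1. Both were clearly highest in Treg, and the other cell types overlapped in part. Treg was 2.12-fold above Th17 for Sp100 (log2 1.08 ± 0.07) and 5.02-fold for Samd9l (log2 2.33 ± 0.13, adjusted p = 1.04e-13 and 8.76e-15). Xaf1, which promotes apoptosis by opposing XIAP, followed Samd9l at 6.52 ± 1.29 CPM in Treg, 2.49 ± 0.492 in CD8, 1.58 ± 0.580 in Th1 and 1.56 ± 0.307 in Th17. Ifi35 was the flattest gene of the list, with means of 31.1 CPM in Th1, 32.7 in Th17, 33.5 in CD8 and 35.8 in Treg. It missed the F-test but is counted as lower in Th1 than in Treg (log2 -0.21 ± 0.08, adjusted p = 0.0224, edgeR). That call was lost on the 12 libraries of the pair alone (edgeR adjusted p = 0.192). Without the Treg libraries of WT number 2 the difference was log2 -0.07. Ifi44 had 25 reads in all and was at 0 in most Th1, Th17 and Treg libraries.

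Genes upstream of the programme were read from lists of pathway members. The 19 type I and type III interferon genes together had 139 reads over 24 libraries, 8 of them had 0, and none passed the count filter. Of 7 interferon receptor chains and JAK kinases, 4 were higher and 2 lower in Treg than in Th17, 3 and 4 in Th1, and 3 and 3 in CD8. Over all genes 38.3% were higher and 36.5% lower in Treg than in Th17, 24.1% and 23.2% in Th1, and 24.3% and 22.8% in CD8, so counts of this size in short lists are not read as a result. Sensing genes upstream of interferon, 9 tested, had 4 higher and 1 lower in Treg than in Th17, 2 and 2 in Th1, and 3 and 1 in CD8. Of 5 feedback inhibitors, a list that includes Usp18, 1 was higher and 3 lower in Treg than in Th17. Both the list of receptors and kinases and the list of feedback genes held genes on either side in Treg against Th17. No list was tested as a set.

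The partners in the type I pathway differed in size. Stat2 averaged 136 ± 14.9 CPM in Treg and 45.1 to 50.7 in the others, and Treg was above Th17 by log2 1.44 ± 0.09 (adjusted p = 4.38e-14). Irf9 was nearer, at 80.8 CPM in Treg, 65.8 in Th1, 56.6 in CD8 and 55.4 in Th17. Irf7, the factor that amplifies interferon production and is itself interferon-induced, was scarce but 18.5-fold higher in Treg than in Th17 (means 9.56 and 0.515 CPM, adjusted p = 6.36e-13). Ifnar1 was 2.60-fold higher in Treg than in Th17 (means 171 and 65.5 CPM), and Ifnar2 lay between 30.98 and 36.2 CPM in all. Treg had the lowest Ifng and the highest summed level of the list. In CD8 and Th1, where Ifng was high, the OAS genes Oas3 and Oas1a, Usp18 and Isg15 were above Treg. Whether Ifng had a part in these levels was not tested.

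Outside Treg no gene of the 31 passed the test for the opioid agonists. With all 20 agonist libraries set against the 4 DMSO libraries across cell types, 0 of 31 genes passed (0% of all genes), and the median log2 change was 0.00, beside 0.01 for all genes. Unadjusted p was under 0.05 for 2 of the 31 (3.17% of all genes), Ifi209 (log2 -0.40 ± 0.19) and Mx1 (0.46 ± 0.22), each with adjusted p = 0.992. For 27 of the 31 the 95% interval lay within a 2-fold change either way. Each agonist on its own against DMSO, with 4 libraries each, also gave 0 of 31 (0% of all genes in each of the 5 comparisons). At an unadjusted p under 0.05 there were 2 genes each with WMS-83 (3.90% of all genes) and WMS-200 (1.55%). There was 1 each with WMS-64 (6.43%) and WMS-75 (3.45%), and 0 with WMS-76 (3.07%). The smallest were Oas1a and Samd9l for WMS-200 (log2 -0.96 ± 0.42 and 0.33 ± 0.15), Mx2 and Ifih1 for WMS-64 (0.65 ± 0.29 and 0.24 ± 0.12), Ifih1 and Oas1a for WMS-75 (0.26 ± 0.12 and -0.82 ± 0.43), Mx1 and Ifit3 for WMS-76 (0.53 ± 0.28 and -0.57 ± 0.35) and Mx1 and Ifi209 for WMS-83 (0.74 ± 0.28 and -0.65 ± 0.25).

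The agonists were also compared with one another, at the same concentration in the same 4 cell types. No gene differed among the 5 (0 of 31, 0% of all genes), nor in any of the 10 pairs with p adjusted over genes and pairs (0 of 31, 0% of all genes). The smallest p belonged to Ifit1, higher with WMS-200 than with WMS-83 by log2 1.36 ± 0.38 (95% interval 0.57 to 2.15, adjusted p = 1.00 in edgeR). Second by p was Isg20, by 0.76 ± 0.25 between WMS-200 and WMS-76 (interval 0.24 to 1.27, adjusted p = 1.00). These intervals reach past a 2-fold change, so the data do not show that the compounds act alike.

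Within single cell types only 1 DMSO library was set against 5 agonist libraries. The Th17 library with DMSO had WT number 2, and those with agonists had number 1 or 3. In Th17 the agonists and the WT number therefore cannot be told apart. In Th1, 0 of 31 genes passed (0% of all genes), in Th17 0 of 31 (0.0378%) and in CD8 0 of 31 (0.0063%). With unadjusted p under 0.05 (edgeR) there were 2 in Th1 (3.25% of all genes), 3 in Th17 (3.34%) and 0 in CD8 (2.01%). In Th1 these were Oasl2, with 0 reads in the DMSO library and 2 to 9 in each of the others, and Mx2, with 1.19 CPM in DMSO and 1.92 to 3.64 with agonists (log2 1.27 ± 0.48, edgeR adjusted p = 1.00). In Th17 the smallest p belonged to Ifih1 (log2 0.60 ± 0.22) and Lgals3bp (-0.35 ± 0.14), and in CD8 to Zbp1 (0.21 ± 0.14) and Eif2ak2 (0.23 ± 0.16), all with adjusted p = 1.00.

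In Treg 5 of 31 genes passed (8.82% of all genes), 2 higher with agonists (7.64%) and 3 lower (1.18%), and 9 had unadjusted p under 0.05. Usp18 stood at 7.03 CPM with DMSO, 3.44 with WMS-200, 3.13 with WMS-64, 2.72 with WMS-75, 3.43 with WMS-76 and 2.62 with WMS-83. Every agonist library was at about the same low level, and the log2 change was -1.19 ± 0.26 (adjusted p = 0.0057). For the other 4 genes the WMS-200 library lay between DMSO and the rest. Ifi209 stood at 27.5 CPM with DMSO and 22.4 with WMS-200 but at 8.79 to 13.2 with the others (log2 -1.14 ± 0.31, adjusted p = 0.0209). Zbp1 stood at 64.6 and 57.2, then 43.2 to 50.4 CPM (log2 -0.41 ± 0.13, adjusted p = 0.0418), with adjusted p at 0.0649 to 0.0753 without the Treg library of WMS-64, WMS-75 or WMS-83, and at 0.0504 to 0.0519 without the Th1 library of WMS-64, WMS-75 or WMS-76 or the CD8 library of WMS-200. Lgals3bp stood at 41.0 and 54.0, then 62.9 to 69.9 CPM (log2 0.63 ± 0.15, adjusted p = 0.0106), and Ifi27l2a at 11.0 and 14.9, then 19.0 to 20.9 CPM (log2 0.80 ± 0.23, adjusted p = 0.0303, or 0.0514 with RLE scaling).

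**Figure D5:**
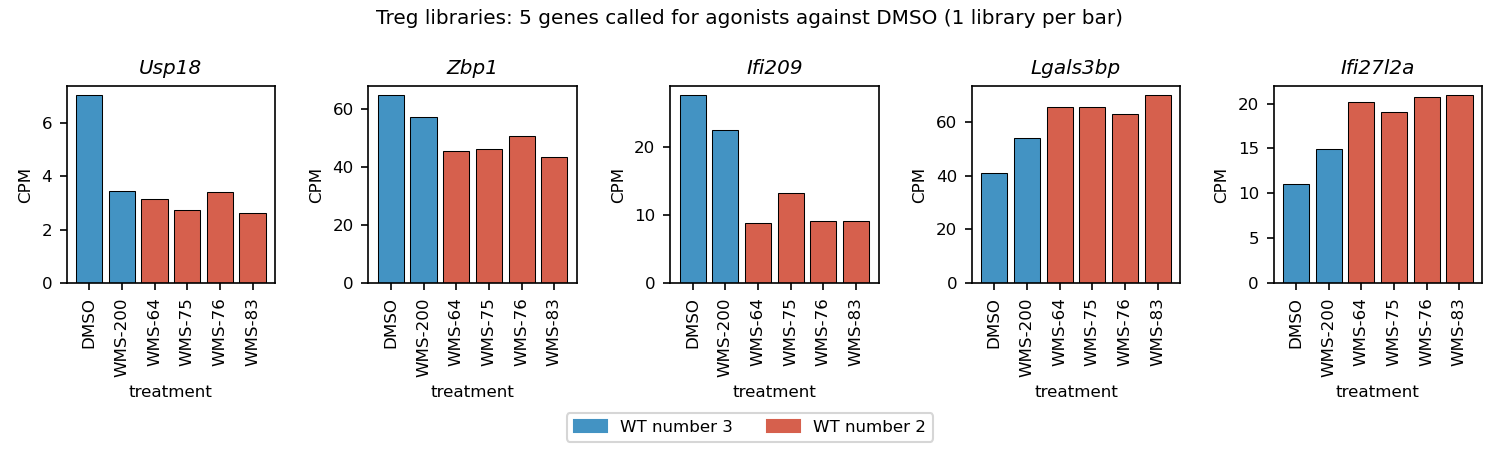
CPM of the 5 genes that passed for agonists against DMSO in Treg, 1 library per bar, coloured by the WT number of the column name. For Ifi209, Zbp1, Lgals3bp and Ifi27l2a the DMSO and WMS-200 bars, WT number 3, lie on one side of the other 4 bars, WT number 2.

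The DMSO and WMS-200 libraries were the 2 with WT number 3, so for the other 4 agonists the compound and the WT number cannot be told apart. With the WT number as a block, 1 WMS-200 library is left against 1 DMSO library. The 5 calls were not kept there, but a comparison of single libraries cannot decide whether they hold, so only sizes are given. Usp18 had log2 -1.03 ± 0.33, Lgals3bp 0.40 ± 0.16, Ifi27l2a 0.44 ± 0.27, Zbp1 -0.17 ± 0.15 and Ifi209 -0.30 ± 0.29. Among the other genes, Oas3 had log2 -0.90 and Ifit1 1.05. Oas1a had log2 -6.34, with 10 reads in DMSO and 0 in WMS-200. Ikzf2 and Foxp3 divided the Treg libraries by the same number, as given above, and the 4 Treg marker genes summed to 2109 to 2433 CPM with number 3 and 2411 to 2618 with number 2. Of the 9 sensing genes upstream of interferon, 3 passed as higher with agonists in Treg (7.64% of all genes), Sting1, Myd88 and Cgas, and 0 as lower (1.18%). Of the 7 receptors and kinases 0 passed. Of the 5 feedback inhibitors 0 passed as higher and 1, Usp18, as lower. The WT number is confounded with the agonists here in the same way, and no list was tested as a set. A test of whether the agonist effect differed between cell types passed for 0 of 31 genes (0.176% of all genes), with the smallest adjusted p for Lgals3bp (0.0756), Usp18 (0.125) and Zbp1 (0.230).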

How the data were processed

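RNA abundance was measured by poly(A)-selected RNA-seq in 24 mouse T-cell libraries. The authors deposited 1 table of whole-number read counts per gene. Per the submitters' processing notes it was made with fastp, HISAT2 and featureCounts; for versions, strand setting, genome build and annotation the record is: not given in the sources used here. No value column was unmapped (0), and no pair of libraries was identical (0).

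Counts were filtered with filterByExpr (minimum count 10), which kept 15885 of 56748 genes, and scaled by TMM to CPM (log2 CPM with a prior count of 2 for plots). Fits used R 4.3.3 and edgeR 4.0.16 (quasi-likelihood test) over all 24 libraries, with cell type and compound as terms (15 residual degrees of freedom), or agonist against DMSO within cell type (16). Adjusted p is Benjamini-Hochberg over all genes, threshold 0.05, except pairs of agonists, adjusted over genes and pairs. The fit with cell type and compound as terms was tested on simulated data, for Th1 and Treg over Th17 only. The fit of agonist against DMSO within cell type was not. Alternatives were limma 3.58.1 (voom), DESeq2 1.42.0, other scalings, no filter, length offsets, subsets of libraries, and WT number as a block. Depth limits genes with few reads: their folds have wide intervals.

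Values by library are given for the gene of each of 10 roles with the highest mean and that with the widest range between cell types, for Ifit3 with Ifit3b, for genes not highest in Treg, and for up to 5 passing or 2 leading genes per agonist comparison. Other genes with values by library were chosen after their values were seen. The members and all lists were chosen with earlier results of these data known. Names absent from the table were Tcrg-C1 and Tcrg-C2, and Tmem173, Rigi and Mb21d1 are present as Sting1, Ddx58 and Cgas. Promoter sequences are RefSeq's on GRCm38.p6. Gene coordinates are the deposited table's, and only 1 of 38 genes has the same start and end in GENCODE M21 on GRCm38, so the builds were not mixed. Recurring 100-base stretches were counted in GENCODE M21 transcripts. Some pathway and marker genes are not reported here.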

Additional observations from a re-analysis of the deposited data

Results flagged for a closer look

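In groups of 6 libraries a single library was checked for standing far from the rest, for 20 genes given by library. Of 84 such groups 4 had 1 library beyond Dixon's 95% limit, and chance alone gives about 1 in 20 groups. Bst2 was at 56.9 CPM in the Th17 library with WMS-75, while the other Th17 libraries stood at 86.9 to 101. Dtx3l was at 60.0 CPM in the Th17 library with WMS-64, below 67.4 to 71.0 in the others. Ifi27l2a was at 26.0 CPM in the Th1 library with WMS-200, above 21.1 to 22.8 in the others. Usp18 was at 7.03 CPM in the Treg library with DMSO, above 2.62 to 3.44 with the agonists. The last is the only DMSO library of Treg, so a single library carries the control value of that comparison.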

How the results depend on the processing

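Over 37 other settings, 2 of them (without the Treg libraries of WT number 3, and without those of WT number 2) chosen after seeing the data, 101 of 140 calls of a gene in a comparison passed in the same direction every time, and DESeq2 kept 140, RLE scaling 138 and limma-voom 137. Restricted to libraries of WT number 2, which include 1 of Th17, CD8 had 13 genes higher than Th17, not 22, while calls over all genes, in either direction, fell to 17.7%. Genes lower in Treg than in Th17 numbered 1, not 2, with library totals as the only scaling, with length offsets and with WT number 2 only. Library totals moved the median of all genes for Treg over Th17 from 0.09 to 0.43 on the log2 scale, for Th1 over Treg to -0.45 and for CD8 over Treg to -0.42, and the list then split 27 higher and 1 lower, 6 and 21, and 5 and 21. With the WT number as a replicate block the 5 calls for agonists in Treg became 0, while DESeq2 and library totals gave 7. Treg over Th17 gave 24 higher and 2 lower without WT number 3, and 23 and 2 without WT number 2. With 1 mismatch, 26 genes, not 13, held the ISRE core. The difference Th1 minus Treg turned to -0.14 for Zbp1 and -0.0107 for Ifi27l2a with library totals, to -0.16 for Ifi27l2a with length offsets, and to -0.0366 for Zbp1 without the Treg libraries of WT number 2, where Ifi27l2a in CD8 minus Treg turned to 0.0339. The cause was not tested. Apart from the 17.7% above, counts of listed genes in this section are given without the share of all genes. They are therefore not read as a result about the list. Leaving out 1 library at a time gave 6 to 9 genes higher in CD8 than in Th1, 20 to 22 in CD8 than in Th17, 6 to 8 in CD8 than in Treg, 17 to 20 in Th1 than in Th17 (3 to 4 lower), 8 to 9 in Th1 than in Treg (17 to 19 lower), 24 to 26 in Treg than in Th17, and 4 to 7 for agonists in Treg.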
